A study of Homo sapiens with 2 samples.

Results

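The 9 miRNAs described here are the 5p arms of the human let-7 family, let-7a, let-7b, let-7c, let-7d, let-7e, let-7f, let-7g and let-7i, together with miR-98-5p. They were chosen by name from the miRNA array, as hsa-let-7a-5p, hsa-let-7b-5p, hsa-let-7c-5p, hsa-let-7d-5p, hsa-let-7e-5p, hsa-let-7f-5p, hsa-let-7g-5p, hsa-let-7i-5p and hsa-miR-98-5p, and make up 9 of its 2565 miRNA probes. The prefix for human is left out below. The array was hybridized with Cy5-labelled total RNA from 22Rv1, a human prostate carcinoma line grown in RPMI1640 medium. The control group was 1 culture left without treatment for 48 h, and the luteolin group was 1 culture given 25 µM luteolin, a plant flavone, for 48 h; no solvent is named in the labels. Each group was measured on 1 array with 1 spot per miRNA, so no test between the groups was possible and every difference below describes this pair of arrays.

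Let-7 miRNAs are made from hairpin precursors that Drosha and Dicer cut into short duplexes, of which the 5p strand is mostly kept in Argonaute proteins. They repress mRNAs that pair with the seed, bases 2 to 8 of the miRNA, among them RAS, HMGA2 and MYC transcripts, and they accumulate as cells differentiate. The RNA-binding protein LIN28 holds back their processing by binding the precursor loop, and low let-7 has been described in many carcinomas, those of the prostate included. Because members share a seed, they are usually taken to act on overlapping sets of mRNAs.

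The mature sequences are shown because the members differ by so few bases, which bears on what a probe for each one reads. They come from RefSeq (GRCh38.p14), which held all 9 names, and are written 5′ to 3′ with the seed in capitals.
let-7a-5p: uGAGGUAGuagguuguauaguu
let-7b-5p: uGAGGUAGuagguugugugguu
let-7c-5p: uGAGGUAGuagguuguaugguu
let-7d-5p: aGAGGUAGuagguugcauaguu
let-7e-5p: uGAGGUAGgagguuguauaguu
let-7f-5p: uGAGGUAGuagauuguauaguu
let-7g-5p: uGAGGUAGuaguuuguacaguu
let-7i-5p: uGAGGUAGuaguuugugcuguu
miR-98-5p: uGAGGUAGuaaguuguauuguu

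All 9 sequences had 22 bases and the seed GAGGUAG. Relative to let-7a-5p, with positions counted from 1 at the 5′ end, let-7c-5p differed by A19G, let-7e-5p by U9G and let-7f-5p by G12A alone. Let-7b-5p carried A17G and A19G, let-7d-5p U1A and U16C, let-7g-5p G12U and U18C, and miR-98-5p G11A and A19U. Let-7i-5p was farthest from let-7a-5p, with G12U, A17G, U18C and A19U. Of the 36 pairs of members 4 differed at 1 base only, and the most distant pair, let-7d-5p and let-7i-5p, differed at 6. A probe for one member may therefore also bind another, and the part of such cross-hybridization in the values below was not tested. GC content lay between 31.8% (let-7f-5p and miR-98-5p) and 45.5% (let-7b-5p).

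The 9 miRNAs come from 12 hairpin genes in the same annotation. On chromosome 9 let-7a-5p lies at chr9:94175962-94175983 (MIRLET7A1), let-7f-5p at chr9:94176353-94176374 (MIRLET7F1) and let-7d-5p at chr9:94178841-94178862 (MIRLET7D), all on the plus strand and within the bounds of the non-coding gene MIRLET7A1HG. A second let-7a copy lies at chr11:122146568-122146589 on the minus strand (MIRLET7A2), within MIR100HG. The third lies at chr22:46112752-46112773 (MIRLET7A3), next to let-7b-5p at chr22:46113691-46113712 (MIRLET7B), both on the plus strand and within MIRLET7BHG. Let-7c-5p lies at chr21:16539838-16539859 on the plus strand, within MIR99AHG. Let-7e-5p lies at chr19:51692793-51692814 on the plus strand, within the bounds of SPACA6. A second let-7f copy at chrX:53557246-53557267 (MIRLET7F2) and miR-98-5p at chrX:53556299-53556320 are on the minus strand, within HUWE1. Let-7g-5p lies at chr3:52268336-52268357 on the minus strand, within WDR82, and let-7i-5p at chr12:62603691-62603712 on the plus strand, within MIRLET7IHG. The reference table gives gene bounds only, so exons and introns were not told apart.

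Levels below are on the authors' scale, meaning background-subtracted intensity multiplied by the authors' factor for each array. A miRNA counts as listed when the authors gave it a value, which they did for signals more than 2 SD above the blank spots. Of 2565 miRNAs 701 were listed on both arrays, and 310 of those exceeded all 32 Negative Control spots on both. Errors written as ± are standard errors of a log2 ratio, worked out from blank spots and from control probes spotted more than once on the same array. They cover neither cultures nor arrays. The brightness of different probes is not a measure of relative abundance, so members are compared by their log2 ratios of luteolin over control and not by their levels. Of the luminal epithelial markers miR-141-3p, miR-200c-3p, miR-200b-3p and miR-375, 4 of 4 read above all Negative Control spots on both arrays. The basal marker miR-205-5p, the endothelial marker miR-126-3p and 4 of 4 stromal and muscle markers were listed on neither array. Of 4 blood markers miR-451a exceeded the Negative Control spots, at raw signals of 94.1 and 70.9 units on the control and luteolin arrays, where the highest of those spots read 93.7 and 69.4. The part of this marker in the results was not tested.

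All 9 members were detected on both arrays and exceeded every Negative Control spot on both, and all 9 were higher on the luteolin array. Their median log2 ratio was 1.22, a 2.33-fold difference, with a range from 0.70 to 1.67. By the size rule of a log2 ratio of 1 or more, 8 of 9 members were 2-fold higher or more and 0 were 2-fold lower. Of the 701 miRNAs listed on both arrays, 13.4% were at least 2-fold higher and 49.9% lay above 0. That 49.9% is set by the scaling, because the authors' adjustment brought the median log2 ratio of the 701 from 0.32 to 0. Of the 310 miRNAs above the Negative Control spots, 18.4% were at least 2-fold higher and 52.3% above 0, with a median of 0.04. The members' median thus stood 1.18 log2 units above the median of those 310, a distance that no scaling factor between the arrays can move.

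**Figure D1:**
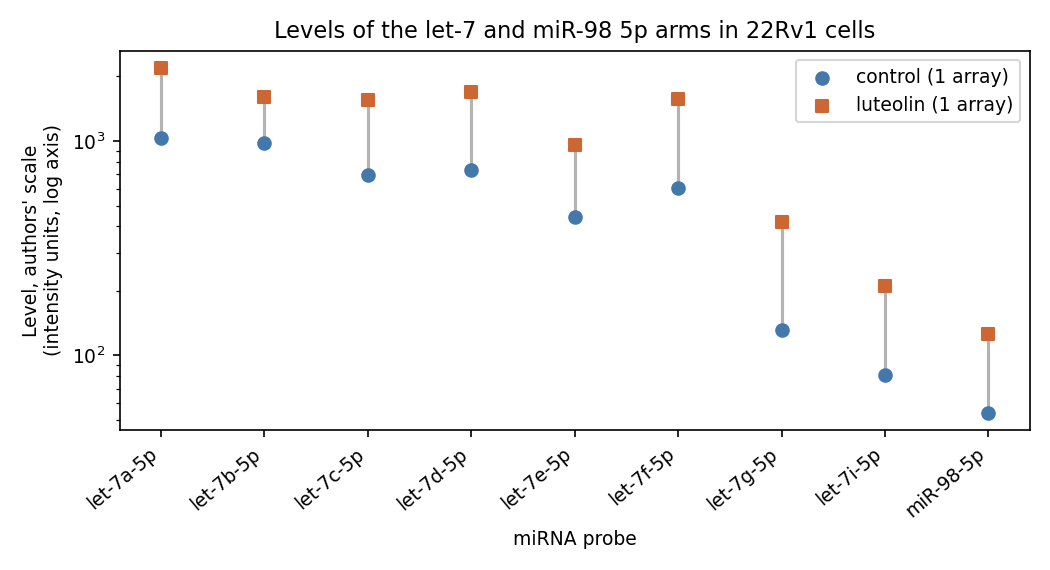
Level of each 5p arm on the control array (circles) and the luteolin array (squares), in intensity units of the authors' scale on a log axis, 1 spot per point. The luteolin point is above the control point for all 9 miRNAs, and the gap is narrowest for let-7b-5p (983 and 1597) and widest for let-7g-5p (131 and 417).

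Let-7a-5p, the most widely studied member, read 1028 in control and 2190 in luteolin-treated cells, a log2 ratio of 1.09 ± 0.14. Its raw signals were 420 and 539 units, against blank means of 81.0 and 66.2. Before any scaling its background-subtracted signal was already 1.40-fold higher. Let-7c-5p, which differs from it at 1 base, read 693 and 1547, or 1.16 ± 0.14. The ratios of this pair differed by less than the SE of their difference, by 0.07 ± 0.20.

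Let-7e-5p, encoded beside miR-99b and miR-125a, read 440 and 961, with a log2 ratio of 1.13 ± 0.14. Let-7d-5p, the member that starts with A in place of U, read 729 and 1700, or 1.22 ± 0.14. Let-7f-5p, which has hairpins on chromosomes 9 and X, read 601 and 1568, or 1.38 ± 0.14. Each of these 3 read higher on the luteolin array by several times its SE, which covers neither cultures, arrays nor the factor between the arrays. Let-7a, let-7f and let-7d share the chromosome 9 cluster, and their ratios lay within 0.29 of each other. This was not particular to the cluster, because all 7 members other than let-7b-5p and let-7g-5p had the same spread of 0.29.

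Let-7g-5p had the highest ratio. It read 131 in control and 417 in luteolin-treated cells, 3.18-fold higher, with a log2 ratio of 1.67 ± 0.15. Its background-subtracted signals were 43.3 and 90.2 units, a 2.08-fold difference before scaling. Let-7i-5p, which shares G12U and U18C with let-7g-5p, read 81.4 and 211, or 1.37 ± 0.16.

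MiR-98-5p, the member outside the let-7 numbering, read 54.0 and 126, a log2 ratio of 1.22 ± 0.19. It was the dimmest spot of the 9 and the one nearest the background. In control cells its raw signal, 98.8 units, exceeded the highest Negative Control spot by 5.05 units, and in luteolin-treated cells its 93.4 did so by 24.0 units. Its raw signal was thus lower on the luteolin array while its background-subtracted signal was higher, at 17.8 and 27.3 units, because the blanks read lower there.

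Let-7b-5p had the lowest ratio and was the only member under the size rule. It read 983 in control and 1597 in luteolin-treated cells, 1.62-fold higher, with a log2 ratio of 0.70 ± 0.14. Without scaling its background-subtracted signals, 324 and 345 units, were 1.06-fold apart, so most of its log2 ratio is the factor between the arrays. That factor, 0.61 on the log2 scale, was also the larger part for let-7a-5p, let-7c-5p and let-7e-5p. Their log2 ratios without scaling were 0.48, 0.55 and 0.52. In the other members the unscaled log2 ratio was the larger part, though only just in let-7d-5p and miR-98-5p, at 0.61 each. Of the 8 members past the size rule, let-7a-5p and let-7e-5p passed it by less than 1 SE.

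In order of log2 ratio the members ran let-7g-5p, let-7f-5p, let-7i-5p, miR-98-5p, let-7d-5p, let-7c-5p, let-7e-5p, let-7a-5p and let-7b-5p. Most neighbours in this order were within 1 SE of their difference. The exceptions were let-7g-5p above let-7f-5p, by 0.28 ± 0.20, and let-7a-5p above let-7b-5p, by 0.39 ± 0.20. Of the 36 pairs, 12 differed by more than 1.96 SE, with no adjustment for the number of pairs. These were all 8 pairs with let-7b-5p, whose ratio was 0.39 to 0.97 below the others, and 4 of the other 7 pairs with let-7g-5p. Between the remaining 7 members, whose ratios spanned 1.09 to 1.38, 0 pairs did so. Let-7b-5p and let-7g-5p were set apart for having the lowest and the highest ratio, which in itself leaves the closer pairs among the rest.

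**Figure D2:**
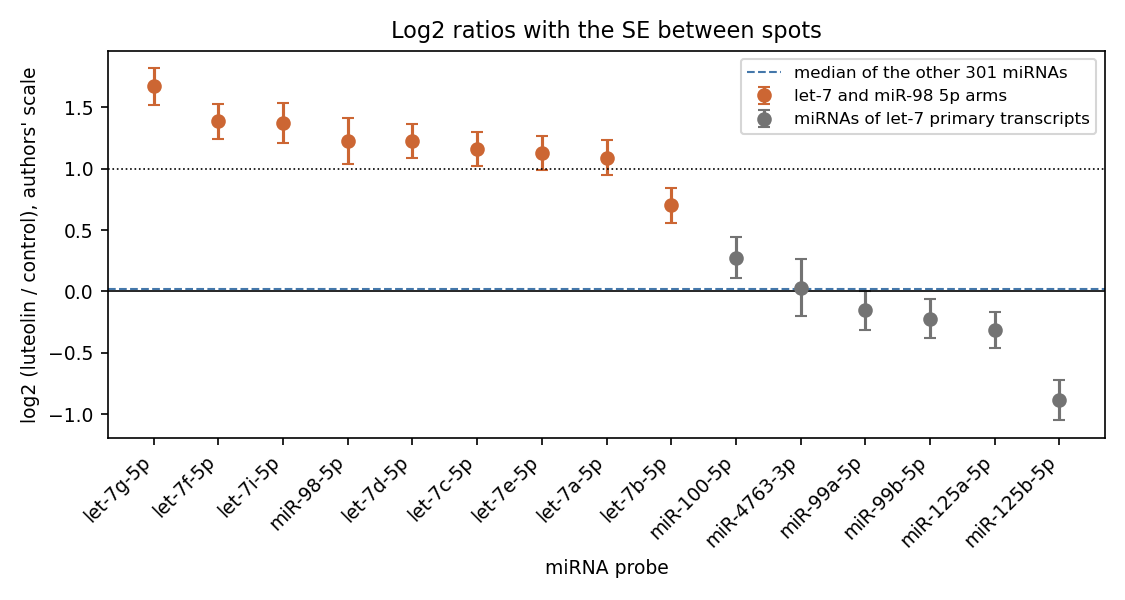
Log2 ratio of luteolin over control on the authors' scale for the 9 let-7 and miR-98 5p arms and for 6 miRNAs that share a primary transcript or locus with a let-7, each point 1 pair of spots, with bars of 1 SE between spots. The dotted line marks 2-fold and the dashed line the median of the other 301 miRNAs above the Negative Control spots (0.02); the 9 members lie between 0.70 and 1.67 and the 6 neighbours between -0.88 and 0.28.

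The precursors of the members with the highest and the lowest ratio are shown because the loop between the arms is where LIN28 binds, and GGAG is the motif it is known to contact. Both come from RefSeq (GRCh38.p14), at chr3:52268278-52268361 on the minus strand and chr22:46113686-46113768 on the plus strand, written 5′ to 3′ with a GGAG between the arms in capitals.
let-7g hairpin: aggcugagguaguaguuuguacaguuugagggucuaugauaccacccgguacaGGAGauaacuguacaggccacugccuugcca
let-7b hairpin: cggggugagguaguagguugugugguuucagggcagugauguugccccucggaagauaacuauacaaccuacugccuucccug

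The letters GGAG, searched on the transcribed strand between the annotated 5p and 3p arms, occurred in 8 of the 11 let-7 and miR-98 hairpins for which the table held both arms, and in 8.12% of 739 hairpins of all miRNAs with both arms. The 3 hairpins without it were those of let-7a-3, let-7b and miR-98. Let-7b-5p had the lowest log2 ratio, 0.70, while miR-98-5p, the dimmest spot of the members, stood at 1.22, in the middle of the members with the motif. Let-7a-5p comes from hairpins with and without the motif and had a log2 ratio of 1.09. A relation between the motif and the ratios was not tested. A match or its lack describes these letters only.

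The passenger arms of the same hairpins were compared next. Of 11 3p arms on the array 8 were listed on neither array, and 0 read above all Negative Control spots on both. Let-7a-3p, with raw signals of 87.4 and 69.9 units, and let-7b-3p, with 84.7 and 68.7, were the 2 listed on both, and their log2 ratios of -0.14 ± 0.43 and 0.06 ± 0.68 are not distinguishable from 0. Let-7f-1-3p was listed on the luteolin array alone, at a raw signal of 69.7 units. A difference in the 3p arms was not detectable at this sensitivity.

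Among 2370 mature names in the RefSeq table, 11 carried the let-7 seed, the 9 members and miR-4458 and miR-4500. Both of the latter were listed on neither array, as was miR-202-3p, whose seed differs from it. Raw signals of these 3 lay between 79.4 and 82.2 units on the control array and between 65.3 and 67.1 on the luteolin array, close to the blank means. Of the 2565 miRNA probes 2253 had a RefSeq sequence of the same name, and the seeds of the others were not searched.

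Several let-7 hairpins are transcribed together with other miRNAs, let-7c with miR-99a and miR-125b, let-7a-2 with miR-100 and miR-125b, let-7e with miR-99b and miR-125a, and let-7b lies near miR-4763. Of 7 arms of these neighbours, 6 read above all Negative Control spots on both arrays, with a median log2 ratio of -0.19. There 2 were above 0, and 0 passed the 2-fold size rule in either direction. MiR-125b-5p, a regulator of apoptosis and differentiation genes, read 109 and 59.0, or -0.88 ± 0.17. MiR-125a-5p read 145 and 117, or -0.31 ± 0.15, and its cluster mate let-7e-5p stood at 1.13 ± 0.14. MiR-99a-5p, which represses MTOR, read 106 and 95.6, or -0.15 ± 0.16, and its cluster mate let-7c-5p stood at 1.16 ± 0.14. MiR-99b-5p stood at -0.22 ± 0.16 and miR-100-5p at 0.28 ± 0.16. All 6 neighbours thus lay below all 9 let-7 and miR-98 ratios, an order that held on this scale and was not put to a test. The 6 also differed from the members in base composition, with GC contents of up to 79.2% that were all above the members' range.

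Base composition moved with the log2 ratio over the array. Among 261 other miRNAs above the Negative Control spots that had a RefSeq sequence of the same name, GC content and log2 ratio had Spearman's rho of -0.38 and Pearson's r of -0.42. This describes probes that share 2 arrays, and no p-value is attached. The 34 of them with a GC content inside the members' range, 31.8% to 45.5%, had a median log2 ratio of 1.13 (quartiles 0.55 and 1.55), and 19 of the 34, 55.9%, were at least 2-fold higher. The 227 with a higher GC content had a median of -0.05, with 10.6% at least 2-fold higher, and 0 had a lower GC content. Set against miRNAs of like composition, the members' median of 1.22 lay inside their quartiles, whereas against all others it lay above the upper quartile of 0.57. Within the family let-7b-5p had both the highest GC content and the lowest ratio, and over the 9 members rho was -0.58. The part of base composition in the members' ratios was not tested. This comparison was added after the ratios had been seen.

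**Figure D3:**
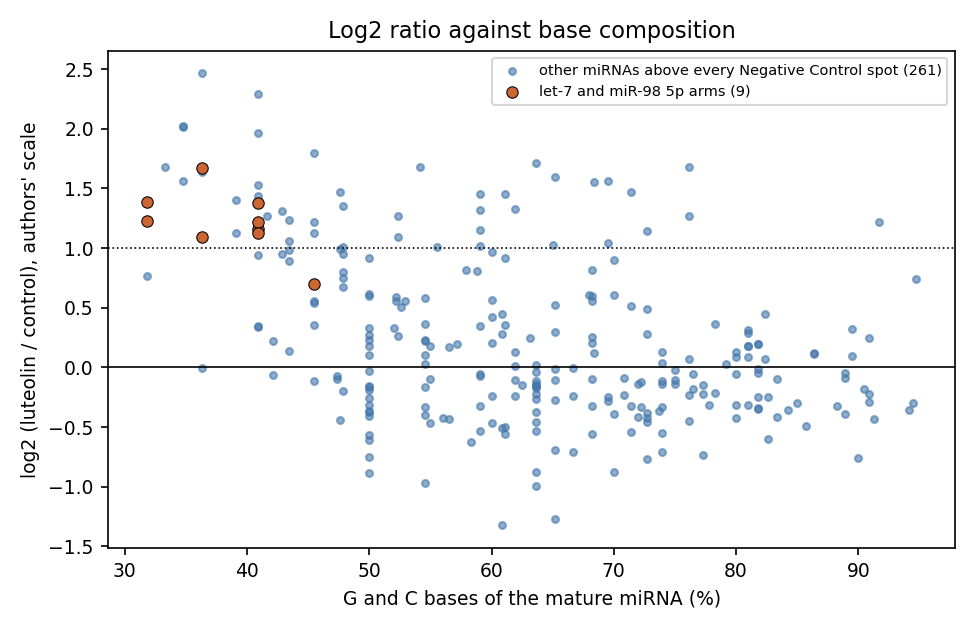
Log2 ratio of luteolin over control on the authors' scale against the percentage of G and C bases in the mature miRNA, for the 9 let-7 and miR-98 5p arms (large points) and 261 other miRNAs above every Negative Control spot on both arrays. The members sit at the AU-rich left edge, where 34 others of like composition have a median of 1.13, while the 227 others to the right have a median of -0.05.

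The level was compared in the same way. The 225 other miRNAs with a control level inside the members' range, 54.0 to 1028, had a median log2 ratio of -0.01, and 15.6% were at least 2-fold higher. Of these, the 25 that also had a GC content in the members' range had a median of 1.12 and 14 at least 2-fold higher, and the 169 with a higher GC content had a median of -0.09 and 15 at least 2-fold higher. Across 301 other miRNAs the log2 ratio and the mean log2 level had a rho of 0.44. Across the 9 members the log2 ratio and the control level, which is also the divisor of the ratio, had a rho of -0.68.

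**Figure D4:**
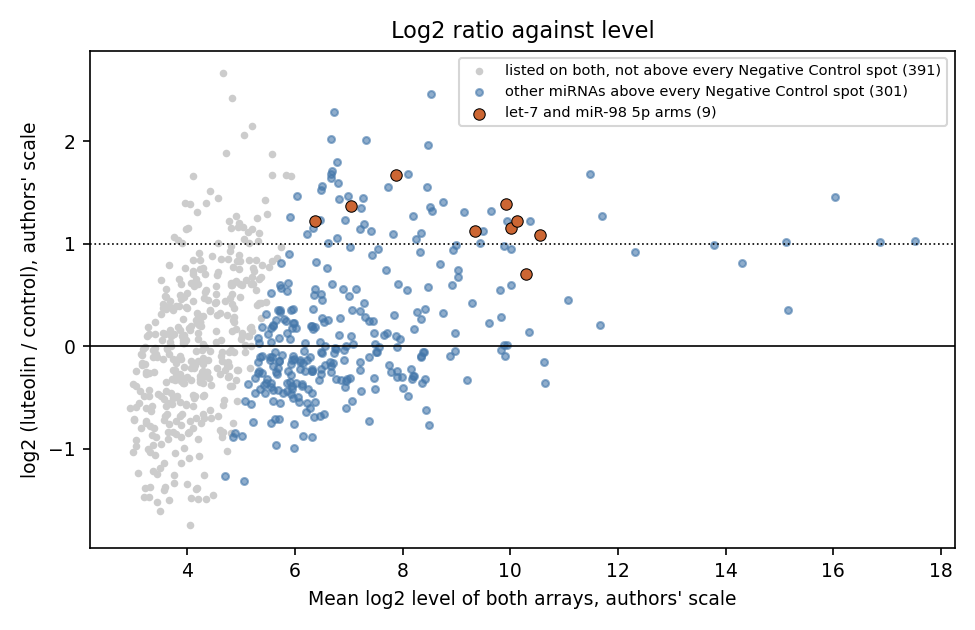
Log2 ratio of luteolin over control against the mean log2 level of both arrays on the authors' scale, for the 9 let-7 and miR-98 5p arms (large points), 301 other miRNAs above every Negative Control spot on both arrays and 391 listed on both without exceeding all of those spots. The 9 members lie above the median of the other 301, which is 0.02.

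The miRNAs whose ratios lay nearest to the members' median, taken as the 3 closest of those above the Negative Control spots, were miR-16-5p (1.22 ± 0.14), miR-6089 (1.22 ± 0.14) and miR-18b-5p (1.24 ± 0.18). With 2 arrays the ratio is the only pattern available, and the farthest of the 3, miR-18b-5p, lay 0.0128 log2 units from the members' median. MiR-16-5p, a repressor of cyclins and BCL2, and miR-18b-5p of the miR-106a cluster had GC contents of 45.5% and 43.5%, while miR-6089 had 91.7%.

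The size of the members' ratios depended on how the arrays were scaled. Their direction stayed the same in the 8 alternatives tried, but not all of these could have changed it. Spike-in scaling and leaving out the adjustment raise every ratio, and the filter leaves the members' ratios unchanged. The authors' factors together multiplied the luteolin array 1.53 times as much as the control array, 0.61 on the log2 scale. Without them all 9 background-subtracted signals were still higher on the luteolin array, by 1.06-fold to 2.08-fold, where 22.7% of the 701 miRNAs were above 0. There 1 member, let-7g-5p, was at least 2-fold higher, against 3.14% of the 701. The added control probes went the other way. Spike Control 1 had median raw signals of 9174 and 3536 on the control and luteolin arrays, Spike Control 2 had 9278 and 3401, and 5 of 5 bright control probes were 0.36 to 0.41 times as bright on the luteolin array after background subtraction. Scaling on the spike controls put the members' median at 2.04 and that of the 310 miRNAs at 0.86, with 9 of 9 members 2-fold higher or more.

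The share of all miRNAs past the same limits moved with the scaling too. With spike-in scaling 40.5% of the 701 miRNAs were 2-fold higher or more and 91.0% were above 0. With global normalization but no adjustment, where 9 of 9 members passed the size rule, the shares were 20.5% and 71.8%. With 75th percentile scaling 3 members passed it, let-7f-5p, let-7g-5p and let-7i-5p, with shares of 7.42% and 36.7%. Quantile normalization of the background-subtracted signals gave a different 3 members, with shares of 7.85% and 44.5%. These were let-7g-5p (1.21), let-7i-5p (1.04) and miR-98-5p, the last only just at 1.0002, while let-7f-5p stood at 0.73. With the Negative Control median subtracted 8 members passed, where the shares of the 646 miRNAs left with a value were 33.0% and 67.2%. With normexp background correction, an offset of 50 and quantile normalization 0 members passed, where 0.143% of the 701 did, while all 9 members and 40.8% of the 701 were above 0. A factor between the arrays adds the same amount to every log2 ratio, and the filter leaves the members' ratios as they are, so 3 of the 8 alternatives could change the members' order or their spread. These were quantile normalization, normexp with quantile normalization, and subtraction of the Negative Control median. In each of them let-7b-5p was the lowest member and let-7g-5p the highest, but the order between them changed. With normexp let-7g-5p stood at 0.65, near let-7d-5p at 0.60. There let-7i-5p (0.41) and miR-98-5p (0.29) were below let-7a-5p (0.51), the reverse of the authors' scale. An added offset pulls the log2 ratios of dim probes towards 0. Let-7i-5p (26.8 and 45.6 units after background subtraction) and miR-98-5p (17.8 and 27.3 units) both read below the offset of 50. The part of the offset in the changed order was not tested.

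**Figure D5:**
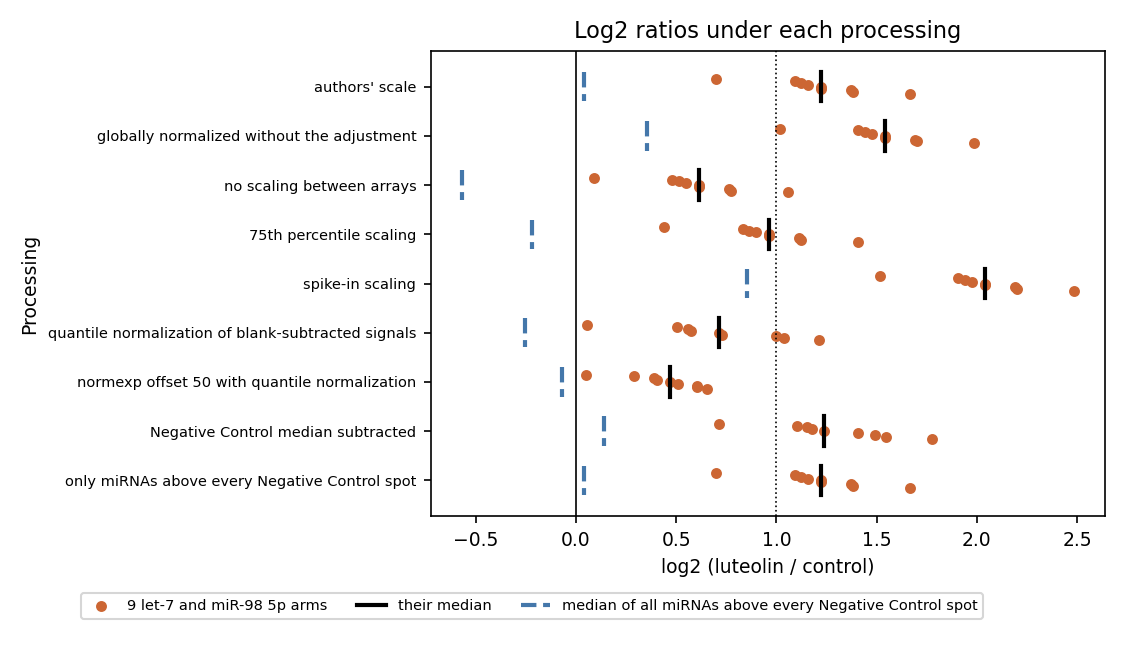
Log2 ratio of luteolin over control for the 9 let-7 and miR-98 5p arms (points) under the authors' scale and 8 alternatives, with the members' median (solid bar) and the median of all miRNAs above every Negative Control spot (dashed bar). All points lie above 0 and the members' median moves between 0.47 and 2.04. Its distance from the dashed bar is fixed at 1.18 where a factor or the filter alone differs, and it is 0.97, 0.54 and 1.10 in the 3 other alternatives, in the order drawn.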

How the data were processed

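MiRNA levels were measured on Toray 3D-Gene arrays with 250 ng of total RNA per array, 1 array per group. Per the file headers, the authors deposited intensity as raw data, after background subtraction, after global normalization and, for the luteolin array, after an adjustment. From the values, they subtracted the mean of 320 blank spots trimmed by 5% at each end (blank SD 1.48 and 0.591 units) and listed signals over 2 SD above it, a rule that matched the listing of all 2565 miRNAs on both arrays. They multiplied by 3.03 (control) and 5.77 (luteolin), which sets the listed median to 25, then the luteolin array by 0.803. The last factor puts the median log2 ratio of the 701 miRNAs listed on both arrays at 0. No source used here names the software. The authors' deposited summary table holds the same values and was used only for that check. Log2 ratios and SEs were computed here. The SE combines the blank SD with the pooled coefficient of variation of 5 bright control probes of 8 spots each (7.34% and 6.23%). The number of arrays limits the precision.

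The members, the related lists (3p arms, shared seed, shared transcripts, cell type markers) and the rule for the nearest 3 miRNAs were chosen with earlier results of these data known. Alternatives changed the scaling, background or filter 1 at a time, except that normexp and quantile normalization were changed together. Of the 310 miRNAs above the Negative Control spots, 270 (87.1%) had a RefSeq sequence of the same name. Python 3.11.15, numpy 2.4.6, pandas 2.3.3, scipy 1.17.1, matplotlib 3.10.9, R 4.3.3 and limma 3.58.1 (normexp) were used. The ratio procedure was tested on data simulated with the same error model and a known scaling. That test therefore examined neither the error model nor the scaling between the arrays.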

Additional observations from a re-analysis of the deposited data

How the results depend on the processing

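Under 8 alternatives, some of which could not lower a ratio, the log2 ratio of each of the 9 members stayed above 0. Let-7b-5p came close to 0, at 0.09 with no scaling, 0.06 with quantile normalization and 0.05 with normexp. Its SE on the authors' scale was 0.14. The share of all miRNAs above 0 ran from 22.7% with no scaling to 91.0% with spike-in scaling. The members' median was 1.22 on the authors' scale. It was 1.54 with global normalization but no adjustment, 0.61 with no scaling and 2.04 with spike-in scaling. With quantile normalization of background-subtracted signals it was 0.71, and with normexp, an offset of 50 and quantile normalization it was 0.47. The number past the 2-fold size rule, 8 in the values as reported, was 1 with no scaling, 3 with 75th percentile scaling (7.42% of 701 miRNAs), 3 with that quantile normalization (7.85%) and 0 with normexp (0.143%). It was 9 with spike-in scaling (40.5%) and 9 without the adjustment (20.5%). The distance to the median of the 310 miRNAs, 1.18, fell to 0.54 with normexp and quantile normalization together. It was 0.97 with quantile normalization alone. An added offset pulls the log2 ratios of dim probes towards 0, and its part in this fall was not tested. With the Negative Control median subtracted, 8 of 9 members (33.0% of 646 miRNAs) were at least 2-fold higher and the median was 1.24. The range of ratios among the members was 0.61 to 1.16 over the alternatives. No array could be left out and no paired analysis was possible because each group had 1 array. Signal over background limits miR-98-5p and the 3p arms.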
